A study of Homo sapiens with 16 samples.

Results

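The 46 genes described here encode the subunits of the constitutive 26S proteasome and the proteins that assemble, open or edit it. They were chosen by name, through the RefSeq accession of each array probe, with no threshold on a measured value, though earlier results of these data were known. All 46 had at least 1 probe that could be tested, among 16394 gene symbols, and they carried 64 of the 33715 probes tested. They fall into 32 subunits of the assembled particle and 14 accessory genes.

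RNA was taken from LP-1 cells, a human multiple myeloma line in which TRAF3 is altered, after lentiviral transduction and sorting for eGFP. LP-1-cIAP2-eGFP cells carried a vector with cIAP2 and eGFP, and control (LP-1-eGFP) cells a vector with eGFP alone, so that both lines were transduced and sorted. Cells of both lines received 10 nM bortezomib or no drug and were collected after 6 h or 24 h, which gives 8 conditions with 2 biological replicates each, hybridized to 16 one-colour Agilent arrays. The single array probe for the cIAP2 gene, BIRC3, was lower in the line labelled as carrying extra cIAP2. On the 4 untreated arrays of the control line it read 13.57, 13.67, 13.54 and 13.55 on the log2 scale, and on those of LP-1-cIAP2-eGFP 11.92, 12.13, 11.92 and 12.06, so that the groups did not overlap. The difference, LP-1-cIAP2-eGFP minus control, was -1.57 (SE 0.11, limma adjusted p = 2.2e-05). In the study's methods this probe is said to lie in an untranslated region, where it detects only the cell's own cIAP2. It therefore does not check the labels of the lines, for which the study used RT-qPCR, not analysed here. Of 9 plasma cell markers, 7 were well above background on 16 of 16 arrays, SDC1, CD38 and IRF4 among them, whereas SLAMF7 had log2 signals of 3.98 to 6.42 in control cells and of 10.54 to 11.22 in LP-1-cIAP2-eGFP cells. Of 7 markers of other cell types with a probe, 5 reached the level needed to be tested, and MS4A1 and EPCAM did not. None of the 5 was well above background on all arrays. PECAM1 had signals of 12.44 to 13.38 in untreated control cells. In untreated control cells of 24 h, mean signals were 5.11 for CD3E, 5.99 for CD14, 3.74 for HBB and 5.83 for COL1A1. In untreated LP-1-cIAP2-eGFP cells of 24 h they were 5.41, 6.22, 6.29 and 4.935 in the same order. Levels are quantile normalized log2 signals, and responses are log2 fold changes of bortezomib against untreated cells of the same line and time. A probe was called at an adjusted p under 0.05 by limma with the Benjamini-Hochberg method over all probes tested, and a gene is represented by its brightest probe.

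The proteasome degrades proteins that have been tagged with ubiquitin. Its core particle (20S) is a barrel in which outer rings of alpha subunits gate the entrance and inner rings of beta subunits carry the proteolytic sites, and its regulatory particle (19S) recognizes the ubiquitin chain, removes it and unfolds the substrate with a ring of ATPases. Bortezomib, which is used to treat multiple myeloma, binds the chymotrypsin-like site of the beta subunit PSMB5. Cells with an inhibited proteasome are known to raise the transcription of subunit genes through NFE2L1 (Nrf1), a transcription factor that pairs with small Maf proteins and binds antioxidant response elements in their promoters.

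To show this element, the promoters held by RefSeq (assembly GRCh38.p14) were searched for the core letters of that element, TGACNNNGC, on both strands, from 250 bases before to 50 bases after the start site. The following windows hold the letters, shown in capitals, in genes with large responses at 24 h (PSMC4, PSMD12), in further core particle subunits (PSMA4, PSMB3), in the ubiquitin receptor ADRM1, and in accessory genes whose transcripts fell (PSMG1, UCHL5). Each is printed 5′ to 3′ on the strand of the gene, and in PSMC4 the letters lie on the opposite strand.
PSMC4, chr19:39971182-39971210, plus strand: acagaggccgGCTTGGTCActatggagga
PSMD12, chr17:67366724-67366752, minus strand: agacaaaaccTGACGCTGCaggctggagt
PSMA4, chr15:78540650-78540678, plus strand: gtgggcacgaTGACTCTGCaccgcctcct
PSMB3, chr17:38752627-38752655, plus strand: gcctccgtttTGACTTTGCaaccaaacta
ADRM1, chr20:62302749-62302777, plus strand: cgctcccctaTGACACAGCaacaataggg
PSMG1, chr21:39183616-39183644, minus strand: gcccagggcaTGACAGCGCgggcgggcgg
UCHL5, chr1:193059393-193059421, minus strand: gcgctgcaggTGACGGCGCccggaggctg
Of the 40 genes with a promoter in that table, 15 (37.5%) held the letters, against 16.1% of all 27305 gene symbols with a promoter of this length. PSMA7, PSMB1, PSMB6, PSMB7, PSMD4 and PSMG3 had no entry. The letters were found in 8 of 27 subunits and in 7 of 13 accessory genes. The median response at 24 h was 0.87 both in the 8 subunits with the letters and in the 19 without them. A match describes the sequence only, and binding was not measured.

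Bortezomib at 24 h raised the transcripts of the assembled particle whereas few of the accessory genes rose. Averaged over the lines, 32 of the 46 genes rose and 7 fell, where 15.1% of all probes were called higher and 19.7% lower. The median response of the 46 genes was 0.72, a 1.64-fold change, beside a median of -0.09 over all genes tested. Among the 32 subunits 30 rose, none fell, and the median was 0.86, whereas among the 14 accessory genes 2 rose, 7 fell, and the median was -0.34. More than 2-fold rises were called in 9 of the 46 genes, against 6.41% of all probes. All 4 treated arrays lay above all 4 untreated arrays for 29 of the 46 genes, including 27 subunits, as they did for 15.5% of all genes. When each array was scaled to its 75th percentile instead, the median of all probes shifted by 0.218 to 0.13, the median of the 46 genes was 0.53, 23 rose and 7 fell, and all 32 subunits kept a positive response. The 9 genes no longer called higher were PSMA3, PSMA7, PSMB6, PSMC3, PSMC5, PSMD3, PSMD7, PSMD8 and PSMD9. Without the dimmest array, which is replicate 1 of the treated LP-1-cIAP2-eGFP cells of 24 h, PSMB1 and PSME4 were called higher, at 0.29 and 0.35, and the responses of PAAF1 and PSMG2, not called in either case, turned from negative to 0.031 and 0.015.

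**Figure D1:**
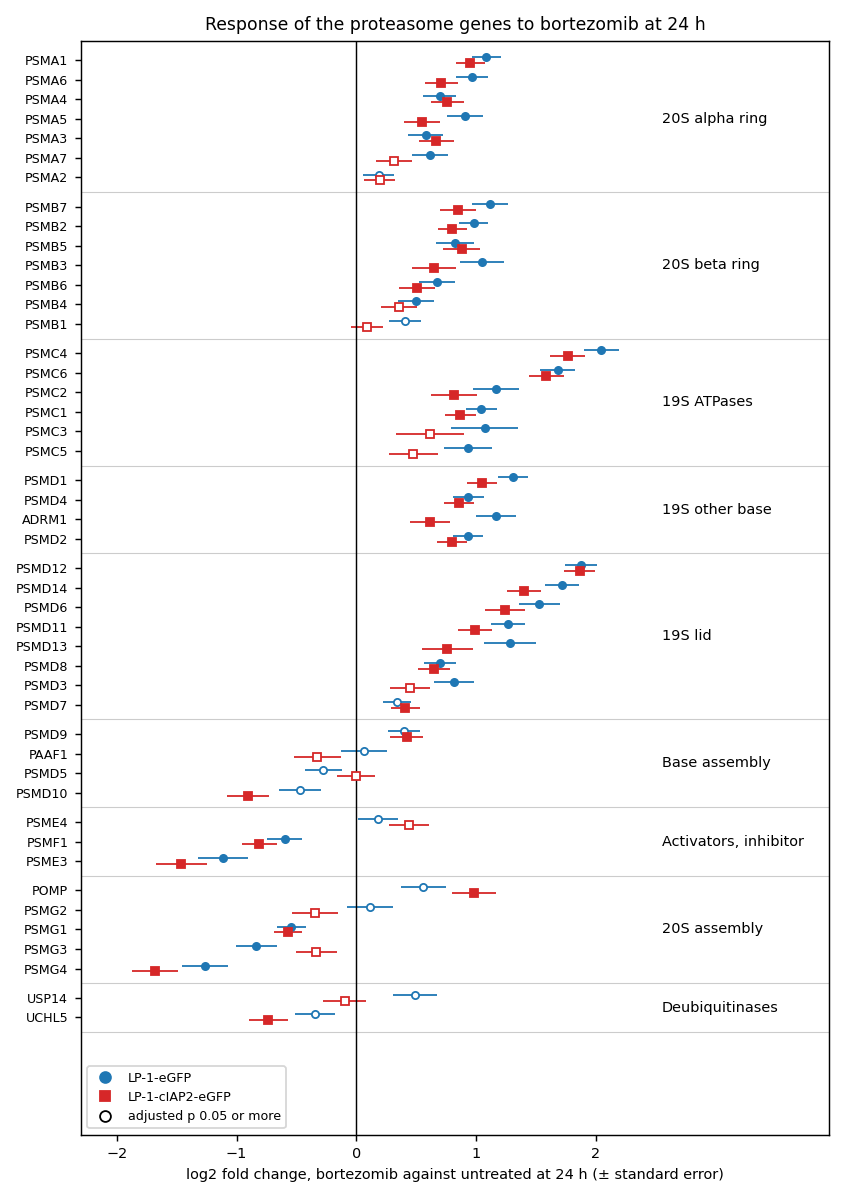
Log2 fold change of bortezomib against untreated cells at 24 h for the 46 genes (rows, by subcomplex and ordered by mean response) in control (blue circles) and LP-1-cIAP2-eGFP cells (red squares), with 2 arrays per condition and bars of 1 standard error from limma; open symbols had an adjusted p of 0.05 or more. All 32 subunits lie to the right of 0 in both lines, whereas the accessory groups spread from -1.68 to 0.98.

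In the beta ring, 6 of 7 genes rose with a median response of 0.85. PSMB5, the target of bortezomib, had log2 signals of 14.68 and 14.83 in untreated control cells at 24 h and of 15.56 and 15.59 with bortezomib. In LP-1-cIAP2-eGFP cells its signals were 14.33 and 14.63 untreated and 15.24 and 15.48 treated. The 4 treated arrays were all above the 4 untreated ones, and PSMB5 rose by 0.85 ± 0.11 (SE; adjusted p = 0.00022). The largest response was that of PSMB7, which carries the trypsin-like site. Its signals in control cells were 15.66 and 15.77 untreated against 16.81 and 16.85 treated, and in LP-1-cIAP2-eGFP cells 15.22 and 15.37 against 15.94 and 16.34. PSMB7 rose by 0.98 (adjusted p = 6.8e-05), and no treated array overlapped the untreated ones. PSMB6, which carries the caspase-like site, rose by 0.59. The smallest response was that of PSMB1, a structural subunit, whose signals were 16.04 and 16.30 untreated and 16.61 and 16.55 treated in control cells, and 16.42 and 16.43 against 16.42 and 16.61 in LP-1-cIAP2-eGFP cells. The arrays of the second line overlapped, and the mean response of 0.25 had an adjusted p of 0.067. The other PSMB1 probe rose by 0.40 (adjusted p = 0.0097), so that the call for this gene depends on the probe.

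In the alpha ring, 6 of 7 genes rose with a median of 0.73. PSMA1 had the largest response. Its log2 signals at 24 h were 15.09 and 15.10 in untreated control cells against 16.24 and 16.12 with bortezomib, and 15.38 and 15.32 against 16.23 and 16.38 in LP-1-cIAP2-eGFP cells. The treated arrays lay clear above the untreated ones in both lines, and PSMA1 rose by 1.02 ± 0.09 (SE). PSMA2 was the only alpha gene that was not called, with signals of 15.53 and 15.76 untreated and 15.88 and 15.78 treated in control cells, and of 15.79 and 15.69 against 15.88 and 15.99 in LP-1-cIAP2-eGFP cells. Its arrays overlapped across the lines, and the response was 0.19 ± 0.09 (SE; adjusted p = 0.14).

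All 18 genes of the regulatory particle rose at 24 h. Their median response was 0.97, against 0.73 for the 14 genes of the core particle, and 8 of the 9 genes that rose more than 2-fold belonged to the regulatory particle. The difference between these groups was not tested. The probe's mean signal and the response at 24 h had a Pearson r of -0.49 across the 32 subunits (Spearman's rho -0.45), which share the same arrays, and of the 8 subunits with 2 probes the dimmer probe gave the larger response in 7. For PSMA1, the second and dimmer probe rose by 2.19. The sizes of responses are therefore compared between genes only as measured on these probes, and the part of signal strength in their order was not tested.

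The 6 ATPases of the regulatory particle, which unfold the substrate and open the gate of the core, had a median response of 0.97. PSMC4 responded most. Its log2 signals were 13.11 and 13.32 in untreated control cells at 24 h and 15.35 and 15.17 with bortezomib, and 13.52 and 13.31 against 15.07 and 15.29 in LP-1-cIAP2-eGFP cells. Treated and untreated arrays were more than 1 log2 unit apart in both lines, and PSMC4 rose by 1.91 ± 0.10 (SE), or 3.75-fold (adjusted p = 1.2e-06). PSMC6 rose by 1.63. The smallest response of the ring was that of PSMC5, with 12.79 and 12.94 untreated against 13.85 and 13.76 treated in control cells, and 12.81 and 12.75 against 12.91 and 13.59 in LP-1-cIAP2-eGFP cells. The low treated value of 12.91 came from replicate 1 of the treated LP-1-cIAP2-eGFP cells, the dimmest array, on which 35.5% of spots were well above background against 49.0% to 71.1% on the others. PSMC5 rose by 0.71 (adjusted p = 0.0034).

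The other base subunits are the scaffolds PSMD1 and PSMD2 and the ubiquitin receptors PSMD4 and ADRM1, and all 4 rose, with a median of 0.89. PSMD1 had signals of 14.58 and 14.77 in untreated control cells at 24 h and of 16.04 and 15.92 with bortezomib. In LP-1-cIAP2-eGFP cells it had 14.90 and 14.92 untreated and 15.94 and 15.98 treated. Its arrays did not overlap, and it rose by 1.18. PSMD2 had 16.59 and 16.62 against 17.52 and 17.57 in control cells, and 16.60 and 16.51 against 17.24 and 17.45 in LP-1-cIAP2-eGFP cells, and although its response was the smallest of the group it rose by 0.87 with no overlap between arrays. ADRM1 and PSMD4 rose by 0.89 and 0.90, and without the dimmest array PSMD4 had the smallest response, 0.86 against 0.91 for PSMD2.

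All 8 lid genes rose, with a median of 1.08. PSMD12, a structural subunit of the lid, had log2 signals of 12.32 and 12.38 in untreated control cells at 24 h and of 14.28 and 14.17 with bortezomib, and of 12.34 and 12.27 against 14.13 and 14.21 in LP-1-cIAP2-eGFP cells. The values of the lines nearly coincided in each treatment, and PSMD12 rose by 1.87 ± 0.09 (SE), or 3.66-fold (adjusted p = 8.3e-07). PSMD14, the lid's deubiquitinase that cuts the chain from the substrate, rose by 1.56, PSMD6 by 1.38, and PSMD11 and PSMD13 by 1.13 and 1.02. PSMD7, the partner of PSMD14 in the lid, responded least, with 15.04 and 14.95 untreated against 15.41 and 15.26 treated in control cells, and 15.28 and 15.24 against 15.66 and 15.68 in LP-1-cIAP2-eGFP cells. Within each line the treated arrays were above the untreated ones, while across the lines they overlapped. PSMD7 rose by 0.37 (adjusted p = 0.0063).

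**Figure D2:**
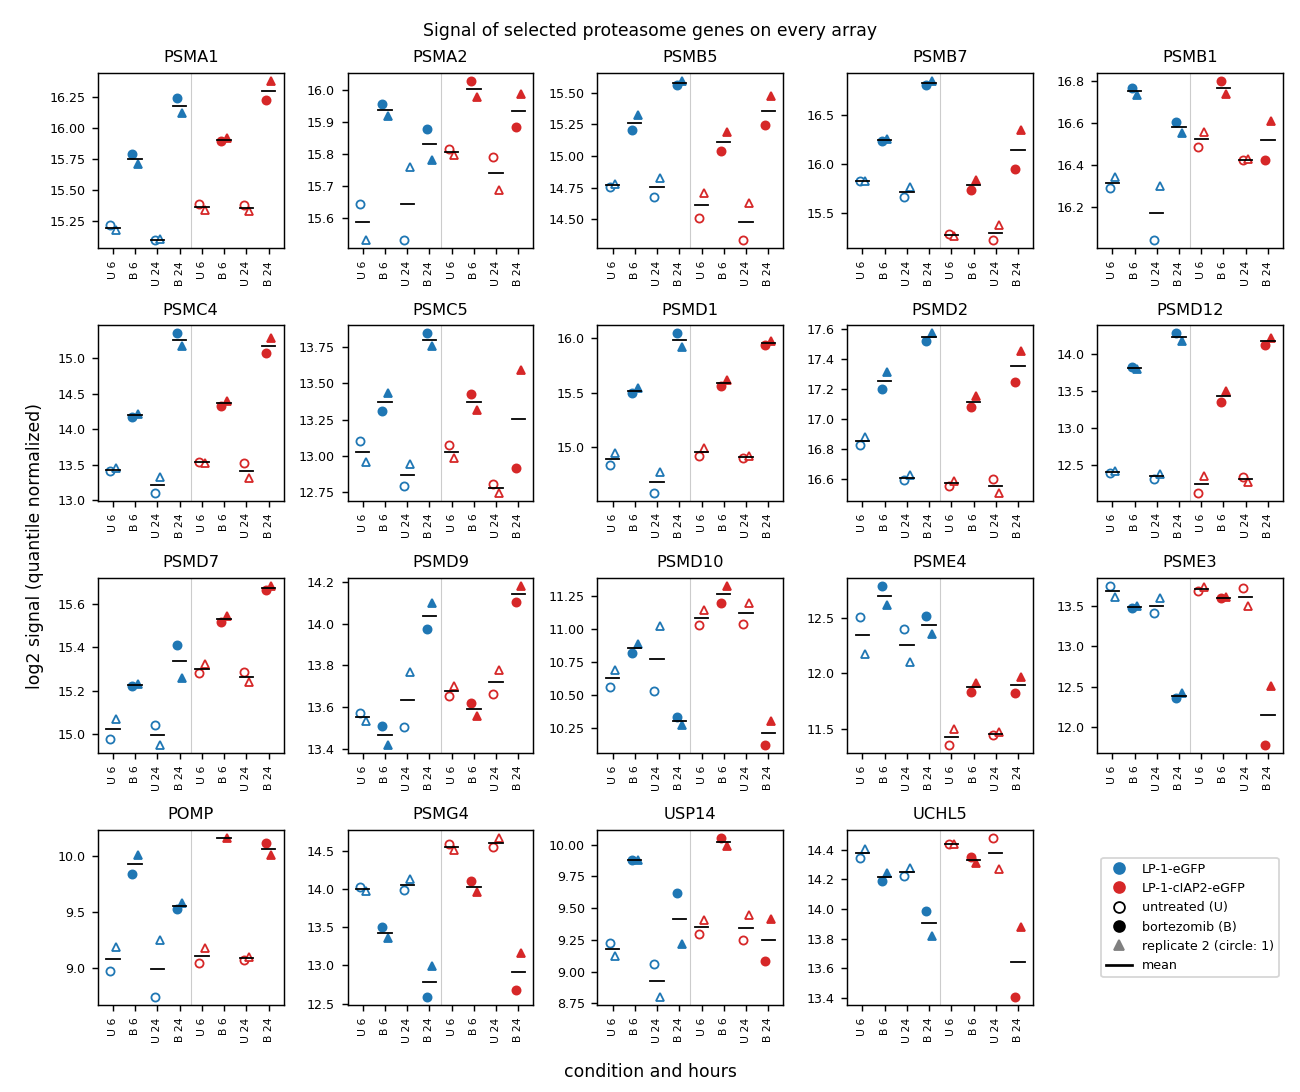
Quantile normalized log2 signal on each of the 16 arrays for PSMB5 and, for each subcomplex, the genes with the largest and the smallest mean response at 24 h; the horizontal axis gives untreated (U, open) and bortezomib (B, filled) at 6 h and 24 h, circles and triangles are replicates 1 and 2, and lines are means. PSMC4 and PSMD12 lie highest on the 24 h bortezomib arrays of both lines, PSMG4 and PSME3 lowest, and each vertical axis has its own range.

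Of the 14 accessory genes 2 rose, 7 fell and 5 were not called. Of the 5 chaperones that build the core particle, POMP rose, PSMG1, PSMG3 and PSMG4 fell, and PSMG2 was not called. POMP, which matures the beta rings, had log2 signals of 8.74 and 9.25 in untreated control cells at 24 h and of 9.53 and 9.58 with bortezomib, and of 9.07 and 9.10 against 10.12 and 10.01 in LP-1-cIAP2-eGFP cells. All treated arrays were above the untreated ones, and POMP rose by 0.77 (adjusted p = 0.0017), fitted on 15 arrays since its spot was left out on 1 array at 6 h. PSMG4, which helps to build the alpha ring, had 13.98 and 14.13 against 12.59 and 12.99 in control cells, and 14.54 and 14.67 against 12.68 and 13.16 in LP-1-cIAP2-eGFP cells. Every treated array was below every untreated one, and PSMG4 fell by 1.47 on the log2 scale (adjusted p = 2.4e-05). PSMG3, which pairs with PSMG4, fell by 0.58. PSMG1 fell by 0.56, and PSMG2, with which it pairs, had a response of -0.11.

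Of the 4 base assembly chaperones, PSMD10 (gankyrin) fell and PSMD9 rose. PSMD10 had log2 signals of 10.53 and 11.02 in untreated control cells at 24 h against 10.33 and 10.27 with bortezomib, and of 11.04 and 11.20 against 10.12 and 10.30 in LP-1-cIAP2-eGFP cells. Its treated arrays were all the lowest, and it fell by 0.69 (adjusted p = 0.0017). PSMD9 had 13.51 and 13.77 against 13.97 and 14.10 in control cells and 13.66 and 13.78 against 14.10 and 14.18 in LP-1-cIAP2-eGFP cells. These arrays did not overlap and PSMD9 rose by 0.41 (adjusted p = 0.0074), but its second, dimmer probe had a response of -0.54 (adjusted p = 0.076), so that its direction depends on the probe. PSMD5 and PAAF1 were not called, at -0.14 and -0.13, and their second probes were both at 0.02.

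PSME3 is a nuclear activator that caps the core particle, PSME4 another activator, and PSMF1 a protein known as an inhibitor of the core particle in vitro. PSME3 had log2 signals of 13.40 and 13.59 in untreated control cells at 24 h and of 12.36 and 12.41 with bortezomib. In LP-1-cIAP2-eGFP cells it had 13.72 and 13.50 untreated and 11.78 and 12.51 treated. It was lower on every treated array and fell by 1.29 ± 0.15 (SE; adjusted p = 0.00011). PSMF1 fell by 0.71, and 1 of its 3 other probes was also called lower, while the remaining 2 had responses of -0.30 and -0.44. PSME4 had 12.40 and 12.11 against 12.52 and 12.35 in control cells and 11.44 and 11.47 against 11.82 and 11.97 in LP-1-cIAP2-eGFP cells. The control arrays overlapped and its response of 0.31 had an adjusted p of 0.067, whereas the second probe rose by 0.35 (adjusted p = 0.039).

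USP14 and UCHL5 are deubiquitinases that bind the regulatory particle. USP14 had signals of 9.06 and 8.80 untreated and 9.62 and 9.21 treated in control cells at 24 h, and of 9.25 and 9.44 against 9.08 and 9.41 in LP-1-cIAP2-eGFP cells. The treated arrays were higher in control cells, the groups overlapped in LP-1-cIAP2-eGFP cells, and the mean response of 0.20 was not called (adjusted p = 0.28). UCHL5 had 14.22 and 14.27 against 13.99 and 13.81 in control cells and 14.48 and 14.27 against 13.41 and 13.88 in LP-1-cIAP2-eGFP cells. All 4 treated arrays were lower, and UCHL5 fell by 0.54 (adjusted p = 0.0053).

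At 6 h the transcripts of most subunits were already higher with bortezomib. Averaged over the lines, 23 of the 46 genes rose and 1 fell, where 3.19% of all probes were called higher and 2.74% lower, and the median response was 0.44 beside -0.03 over all genes. Whether it was smaller than at 24 h depended on the scaling, since the medians at 6 h and 24 h were 0.44 and 0.72 under quantile normalization and 0.58 and 0.53 with 75th percentile scaling. All 32 subunits had a response above 0, and 21 of them rose, 7 of 14 in the core particle and 14 of 18 in the regulatory particle. All 4 treated arrays were above all 4 untreated ones for 31 of the 46 genes, as for 9.27% of all genes. Only 2 of the genes, PSMD12 and PSMC6, rose more than 2-fold, against 1.13% of all probes. With any 1 of the 8 arrays of 6 h left out, the number that rose was between 14 and 16.

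The 5 largest rises at 6 h were those of PSMD12, PSMC6, PSMD14, POMP and PSMD11. PSMD12 had log2 signals of 12.39 and 12.42 in untreated control cells at 6 h and of 13.82 and 13.80 with bortezomib, and of 12.13 and 12.35 against 13.35 and 13.50 in LP-1-cIAP2-eGFP cells. The treated arrays were far above the untreated ones in each line, and it rose by 1.30. PSMC6 rose by 1.10, PSMD14 by 0.97, POMP by 0.95 and PSMD11 by 0.91. PSMC4, first at 24 h, had 13.40 and 13.45 against 14.17 and 14.22 in control cells at 6 h and 13.53 and 13.53 against 14.33 and 14.40 in LP-1-cIAP2-eGFP cells, a rise of 0.80. PSMB5 had 14.75 and 14.78 against 15.20 and 15.33, and 14.51 and 14.71 against 15.04 and 15.19, a rise of 0.50. These arrays did not overlap for either gene.

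USP14 was the 1 gene called higher at 6 h and not at 24 h. It had signals of 9.23 and 9.12 untreated and of 9.88 and 9.88 treated in control cells at 6 h, and of 9.29 and 9.40 against 10.05 and 9.99 in LP-1-cIAP2-eGFP cells. The arrays were clear of each other in both lines and USP14 rose by 0.69 (adjusted p = 0.013). PSMG4 was the 1 gene that fell at 6 h, by 0.54 (adjusted p = 0.047), with 14.02 and 13.98 against 13.50 and 13.36 in control cells and 14.58 and 14.50 against 14.10 and 13.95 in LP-1-cIAP2-eGFP cells. It was lower on the treated arrays of each line, while the treated LP-1-cIAP2-eGFP arrays overlapped the untreated control arrays. The number of genes called lower at 6 h was 0 with 75th percentile scaling and 3 without the dimmest array.

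**Figure D3:**
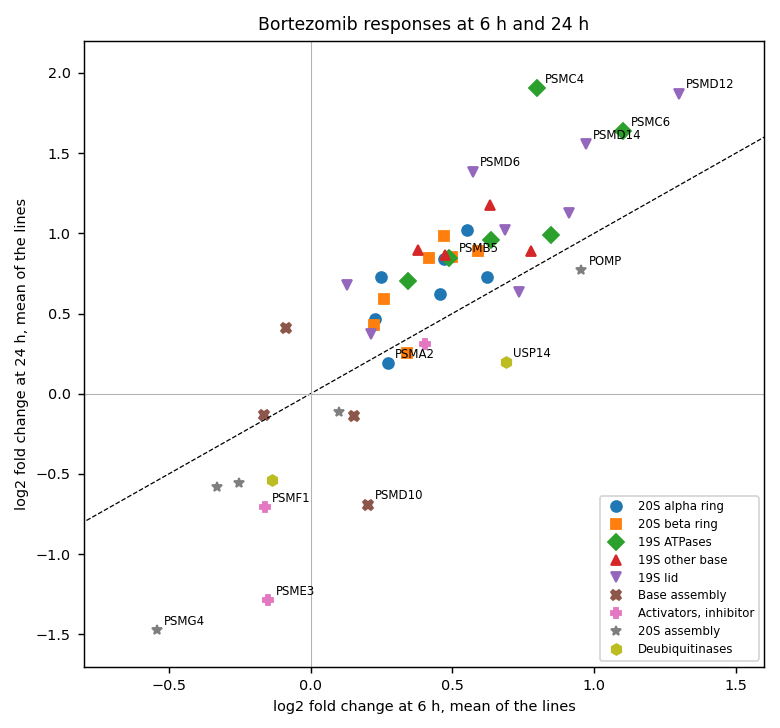
Response to bortezomib at 6 h (horizontal) and at 24 h (vertical) for the 46 genes, each as a log2 fold change averaged over the lines, with symbols by subcomplex; the dashed line marks equal responses. Subunits lie above 0 on both axes and mostly above the line under quantile normalization, and PSMG4, PSME3, PSMF1 and PSMD10 lie below 0 at 24 h; scaled to the 75th percentile, the median of the difference between the times is -0.12.

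The change from 6 h to 24 h was tested as the difference of the responses. Under quantile normalization 12 genes had a larger response at 24 h and 4 a lower one, where 6.16% and 8.78% of all probes were called, but none was called larger when arrays were scaled to their 75th percentile, with a median difference of -0.12 in place of 0.23. The 12 were PSMA1, PSMA4, PSMB7, PSMC4, PSMC6, PSMD1, PSMD4, PSMD6, PSMD8, PSMD9, PSMD12 and PSMD14, and the difference for PSMC4 was 1.11 (adjusted p = 0.0011). The 4 with a lower response were PSMD10, PSME3, PSMF1 and PSMG4, and with the other scaling 4 genes were called lower. With the slide as a block 6 were called larger. A single gene, PSMC4, was called larger by more than 2-fold, against 2.72% of all probes. The count of 12 was 19 without the dimmest array, 14 without the other replicate of that condition, and between 3 and 10 without any 1 of the other 14 arrays. In untreated cells no gene differed between 24 h and 6 h by limma with Benjamini-Hochberg adjustment, where 0.0089% of all probes did, and none had an unadjusted p under 0.05.

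The lines were compared because the study asks how cIAP2 affects tolerance to proteasome inhibitors. At 24 h, 29 of the 46 genes rose and 5 fell in control cells, where 9.82% and 11.2% of all probes were called, and 27 rose and 6 fell in LP-1-cIAP2-eGFP cells, where 11.1% and 17.5% were called. With 75th percentile scaling 17 rose in control and 12 in LP-1-cIAP2-eGFP cells, and with array weights 30 and 7 rose. Rises of more than 2-fold were called for 15 genes in control cells and for 6 in LP-1-cIAP2-eGFP cells, against 5.32% and 6.42% of all probes, and the number for LP-1-cIAP2-eGFP cells was 10 without the dimmest array. Of the subunits, 24 rose in both lines. The responses of the lines had a Pearson r of 0.95 across the 46 genes (Spearman's rho 0.90). No gene was called for a difference between the lines' responses at 24 h by limma, where 0.0712% of all probes were, 2 had an unadjusted p under 0.05, and the lowest adjusted p was 0.61. The signed log2 response was lower in LP-1-cIAP2-eGFP cells for 36 of the 46 genes. A lower value means a smaller rise or, as for PSME3 and PSMG4, a larger fall. The median difference was -0.26, beside -0.14 over all probes. Without the dimmest array this median was -0.06, beside -0.008 over all probes, and 18 of the 46 genes had a higher response in LP-1-cIAP2-eGFP cells. For PSMB5 the difference was 0.06, with a 95% confidence interval from -0.44 to 0.55, and for PSMC4 it was -0.28, from -0.74 to 0.18, so that differences of this size were not resolved by 2 arrays per condition. Leaving out replicate 2 of the treated LP-1-cIAP2-eGFP cells of 24 h left the dimmest array alone in its condition. Genes were called in that fit, but these calls are not read as a result about the 46 genes. With single arrays left out in turn, the median difference between the lines' responses ranged from -0.35 to -0.06. At 6 h, 9 genes rose in control cells and 6 in LP-1-cIAP2-eGFP cells, where 1.26% and 0.762% of all probes were called. Without the dimmest array these numbers were 20 and 17, where 3.02% and 2.17% of all probes were called. With 75th percentile scaling they were 3 and 3. No gene was called for the difference between the lines or had an unadjusted p under 0.05, with 0.00297% of all probes called.

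The arrays lay on 2 slides, with 6 of the LP-1-cIAP2-eGFP and 2 of the control arrays on slide 1. Within slide 1, LP-1-cIAP2-eGFP cells at 24 h had 37 of 46 responses above 0 with a median of 0.59, and within slide 2, control cells had 38 of 46 with a median of 0.75. Slide 1 held 1 untreated LP-1-cIAP2-eGFP array of 24 h and slide 2 held 1 treated control array of 24 h, so that these are values from an arm of 1 array, and the lack of calls within a slide is not informative. With the slide as a block the numbers that rose were 22 in LP-1-cIAP2-eGFP cells, 27 in control cells and 32 on average.

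Averaged over treatment and time, the level of 6 genes differed between the lines, against 16.1% of all probes, which in 46 genes is no more than the background. PSME4, PSMB7 and PSMD5 were lower in LP-1-cIAP2-eGFP cells, and PSMG4, PSMA3 and PSMD7 higher. PSME4 had log2 signals of 12.51, 12.18, 12.40 and 12.11 on the untreated control arrays and of 11.36, 11.50, 11.44 and 11.47 on the untreated LP-1-cIAP2-eGFP arrays. The arrays were apart, the difference averaged over all conditions was -0.77 (95% interval from -0.96 to -0.58), and the second probe gave -0.45. PSMB7 had 15.82, 15.82, 15.66 and 15.77 on the untreated control arrays against 15.28, 15.26, 15.22 and 15.37, also without overlap, and a difference of -0.53. PSMG4 was higher by 0.46, PSMA3 by 0.33 and PSMD7 by 0.30, and PSMD5 differed by -0.39. The second and dimmer PSMG4 probe gave -0.56 (adjusted p = 0.25), so that the sign for this gene depends on the probe. Within a slide only 2 of the 4 conditions could be matched between the lines, and the differences of PSME4 and PSMB7 were -0.72 and -0.61 on slide 1 (untreated at 6 h and treated at 24 h) and -0.90 and -0.45 on slide 2 (untreated at 6 h and at 24 h). None of these differences exceeded 2-fold, where 1.01% of all probes were called more than 2-fold higher and 3.33% lower. With 75th percentile scaling 3 genes were called lower and 0 higher, so that no higher level was called there. Without the dimmest array 8 genes were called higher, against 11% of all probes, and 4 lower. The statement that the number called is no more than the background is therefore for the fit on all 16 arrays.

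**Figure D4:**
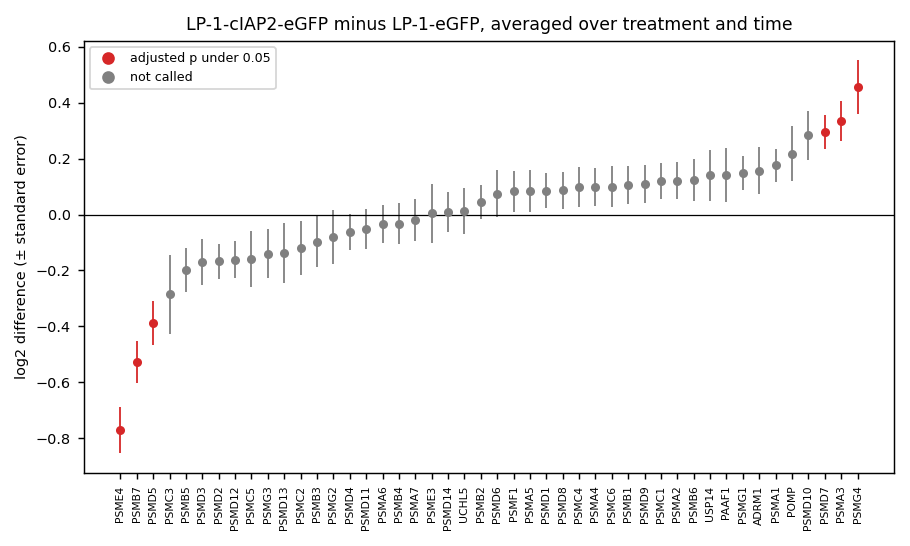
Difference in log2 signal between LP-1-cIAP2-eGFP and control cells, averaged over both treatments and times, for the 46 genes in order of the difference; bars are 1 standard error from limma over 16 arrays. PSME4, PSMB7 and PSMD5 are called at the low end and PSMD7, PSMA3 and PSMG4 at the high end, and the other 40 genes lie between -0.29 and 0.28.

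Genes that act on the proteasome were followed in lists from general knowledge of the pathway, and their counts at 24 h stand beside the same 15.1% of all probes called higher and 19.7% lower. The immunoproteasome genes encode catalytic subunits that replace the constitutive ones (PSMB8, PSMB9, PSMB10) and the activator PSME1 and PSME2, and in contrast to the constitutive subunits 5 of 5 fell at 24 h, with a median of -1.22. PSMB8, with the largest fall, had log2 signals of 13.02 and 13.33 in untreated control cells at 24 h against 11.95 and 12.19 with bortezomib, and of 12.82 and 12.86 against 10.83 and 11.54 in LP-1-cIAP2-eGFP cells. Every treated array was below every untreated one and PSMB8 fell by 1.38 ± 0.15 (SE; adjusted p = 8.3e-05), whereas none of the 5 was called at 6 h. All 5 also fell with 75th percentile scaling, with normexp background correction and with the authors' normalized values.

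Of 10 tested regulators of the proteasome genes, 7 rose at 24 h and 1 fell. NFE2L1 had signals of 13.79 and 12.79 in untreated control cells against 14.46 and 14.53 with bortezomib, and of 13.10 and 12.87 against 14.96 and 14.78 in LP-1-cIAP2-eGFP cells. The untreated control replicates differed by 1 log2 unit but stayed below the treated ones, and NFE2L1 rose by 1.54 ± 0.19 (SE; adjusted p = 0.00015). Its small Maf partner MAFF had the largest rise, by 3.79, and NFE2L3 fell by 0.75. DDI2, the protease that cuts NFE2L1 into its active form, had a response of -0.30 (adjusted p = 0.46) from a probe well above background on 13 arrays, and this value turned positive, to 0.14, with 75th percentile scaling, and was -0.057 without the dimmest array. VCP, which extracts NFE2L1 from the endoplasmic reticulum, rose by 1.16. NFE2L2 was well above background on 1 array only and was not tested.

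The 15 shuttle and receptor factors include proteins that bring substrates to the proteasome. At 24 h 8 of the 15 rose, where 15.1% of all probes were called higher. The 3 that fell were a share near the 19.7% of all probes called lower. ZFAND2A rose most, by 4.33, and the ligase UBE3C fell by 1.18. SEM1, a small lid subunit kept in this list, had 15.27 and 15.48 against 16.23 and 16.17 in control cells and 15.51 and 15.84 against 16.06 and 16.41 in LP-1-cIAP2-eGFP cells. The treated arrays lay above the untreated ones, overlapping in no line, and SEM1 rose by 0.69 (adjusted p = 0.0012; 0.057 with 75th percentile scaling). UBB, which encodes ubiquitin, rose by 0.43. UBA1, which activates ubiquitin, had a response of -0.32 that was called lower with 75th percentile scaling. Among the heat shock genes, the 9 with a signal above background in every condition of 24 h all rose, with a median of 1.82, led by HSPA1B at 5.24 and with DNAJB1 at 4.64. HSPA1A was not well above background on the untreated arrays of 24 h and was so on 1 of the 2 treated arrays of each line. The mean of both treated arrays was set against the lowest signal well above background on each untreated array. It was 1.28-fold higher in control cells and 4.32-fold higher in the other line. Since 1 treated array in each mean was not well above background, these are rough figures and not bounds.

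The lid has the same architecture as the COP9 signalosome, which removes NEDD8 from cullins, and the translation factor eIF3, so that these complexes show whether related large assemblies moved likewise. In the COP9 signalosome 3 of 9 genes rose and 1 fell, with a median of 0.09 that turned to -0.13 with 75th percentile scaling. COPS2 rose by 1.35 and COPS6 fell by 0.50, while the lowest response, that of COPS7B at -0.59, was not called and was -0.28 without the dimmest array, above that of COPS6 at -0.35. In eIF3, 6 of 13 genes rose and 2 fell, with a median of 0.27, from EIF3F at 0.77 to EIF3B, which fell by 1.01. In the cytosolic chaperonin none of 8 was called higher and CCT5 fell by 1.24, with a median of 0.07, and the largest positive response, of TCP1, was 0.36 (adjusted p = 0.054). The CCT5 probe was weak, with signals of 4.79 to 8.19, against 11.77 to 17.78 for the other chaperonin genes. Its treated arrays of 24 h read 4.79 and 6.64 in LP-1-cIAP2-eGFP cells and 6.16 and 6.76 in control cells. Without the dimmest array 2 of the 8 were called higher, TCP1 among them at 0.40, and the response of CCT5 was -0.79. With the slide as a block CCT5 was not called (adjusted p = 0.069). The differences between these lists and the subunits were not tested.

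**Figure D5:**
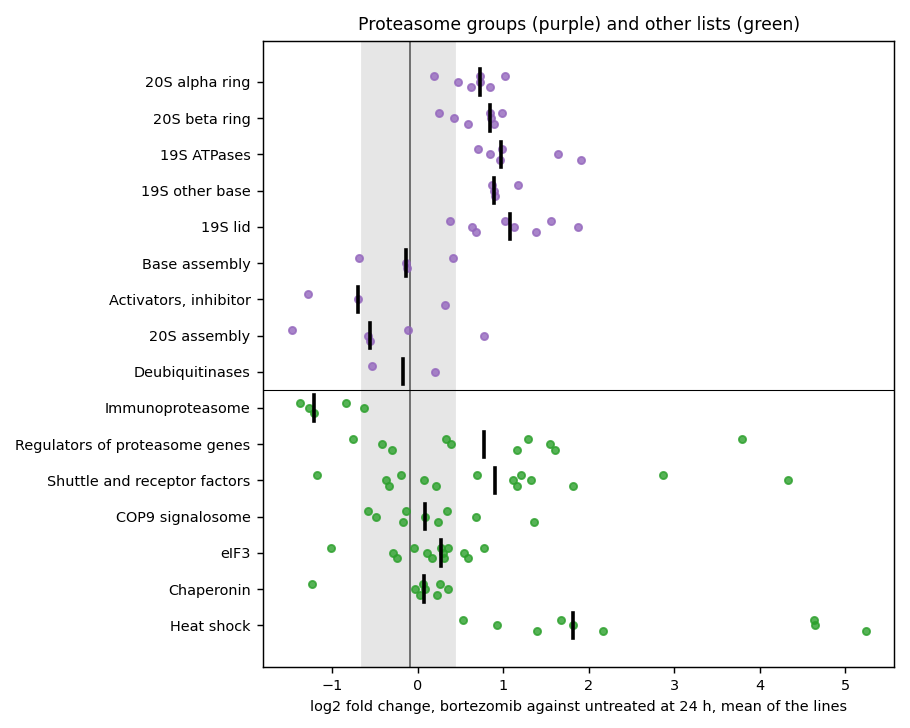
Response to bortezomib at 24 h, as a log2 fold change averaged over the lines, of each gene (points) above background in every condition of 24 h in the 9 proteasome groups (purple) and in 7 other lists (green), with the median of each list as a black bar; the grey line and band give the median and the middle 50% of all 16394 genes. The 5 subunit groups and the heat shock genes lie to the right of the band's centre and the immunoproteasome to its left; the COP9 signalosome median of 0.09 becomes -0.13 when arrays are scaled to their 75th percentile.

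The plasma cell markers moved at the same time, with 8 of 9 lower at 24 h, a median of -1.46, and none of the 9 below background on every array. SDC1 fell by 2.46, MZB1 by 2.01 and XBP1 by 1.46, while SLAMF7 rose by 0.62 and was not called with 75th percentile scaling. The mean SLAMF7 signal at 24 h went from 5.02 to 6.14 in control cells. In LP-1-cIAP2-eGFP cells, where the signal was stronger, it went from 10.76 to 10.88 only. Of the 5 markers of other cells that were tested, 3 were called lower at 24 h and 0 higher. PECAM1 fell by 4.12 on a probe well above background on 15 arrays. MS4A1 was well above background on 0 arrays and EPCAM on 2. In cultures treated with a toxic drug, fewer cells of a kind and less RNA per cell cannot be told apart on an array, and the part of such a change in the proteasome responses was not tested.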

How the data were processed

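Total RNA of 16 LP-1 cultures was labelled with Cy3 and hybridized by the authors to one-colour Agilent 60K arrays. The spot intensities deposited for each array are, per the file headers, background subtracted and detrended by the scanner software, and not normalized between arrays. The log2 values in the table that the authors deposited are quantile normalized and centred per probe, and served as an alternative only.

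Here log2 intensities were quantile normalized over the 50599 gene probes. Outlier spots were left out, and a probe entered the tests where the scanner software called both replicates of some condition well above background. A linear model with 1 mean per condition was fitted to all 16 arrays (limma 3.58.1, R 4.3.3, with empirical Bayes moderation), and p-values were adjusted by the Benjamini-Hochberg method over all probes tested, with 8 residual degrees of freedom. A log2 fold change is relative to the normalized median of the array. Probes were named through their RefSeq accession, for 28174 probes (55.7%), and the others are unnamed here. The test was checked on simulated data with few changed probes, as many raised as lowered, and the same spread of a probe on every array. That check does not cover changes as broad as those at 24 h or an array as dim as the dimmest one. Groups and replicates came from the labels. Depth has no counterpart on arrays, and 2 arrays per condition limit the precision. The study calls the replicates biological, and the p-values measure the spread between these samples.

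Array values are given for PSMB5 and for the genes of each subcomplex with the largest and the smallest response at 24 h. Genes that fell, were not called, differed between the lines or had discordant probes were named too, with the 5 largest rises at 6 h and the extremes of each pathway list. Other names were chosen after their values were seen. The genes and lists were chosen with earlier results of these data known. Alternatives changed the scaling, background correction, filter, probe rule, threshold, array weights, blocks and arrays included.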

Additional observations from a re-analysis of the deposited data

Results flagged for a closer look

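The response to bortezomib differed between 6 h and 24 h by limma's test of the difference, averaged over the lines, with 12 genes larger and 4 lower at 24 h. With each array scaled to its 75th percentile, 0 genes were larger and 4 were lower. The dimmest array belongs to the 24 h bortezomib condition, and its part in the difference was not tested beyond leaving it out, which gave 19 larger.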

How the results depend on the processing

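Of 1240 values for the response of single genes at 24 h averaged over the lines, under the alternatives, 1178 kept their direction and their side of the threshold, 44 were no longer called, 13 became called, and 5 turned. The response of PSMD9 was -0.065 with its probes averaged, and without the dimmest array, which is counted both under that setting and among the arrays left out in turn, PAAF1 was at 0.031 and PSMG2 at 0.015, neither called with or without it (-0.13 and -0.11 with all arrays). Over the arrays left out in turn they ranged from -0.29 to 0.031 and from -0.24 to 0.015. The number of genes raised at 24 h on average was 23 to 34 under every alternative except the 2-fold rule, which left 9. Scaling to the 75th percentile gave 17 raised genes in control and 12 in LP-1-cIAP2-eGFP cells at 24 h, 0 with a larger response at 24 h than at 6 h, and 3 with a different level in the lines. Without a filter on signal, 15 rose at 6 h and 2 had a larger response at 24 h. Restricting the tests to probes above background on every array, or leaving out the dimmest array, gave 12 genes with a different level, and the latter 19 with a larger response at 24 h. The slide as a block gave 6 for that difference. Array weights gave 7 raised genes in LP-1-cIAP2-eGFP cells. Within slide 1 (LP-1-cIAP2-eGFP) and within slide 2 (control) 0 were called, in each case with an arm of 1 array, which could hardly give a call. The 2-fold rule gave 15 genes in control and 6 in LP-1-cIAP2-eGFP cells at 24 h (10 in the latter without the dimmest array), 2 at 6 h, 1 larger at 24 h than at 6 h, and 0 for the level in the lines. The cause was not tested, apart from the fewer arrays or the stricter rule themselves.

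With single arrays left out, the numbers ranged from 31 to 34 for rises at 24 h on average, from 23 to 34 in control and from 19 to 31 in LP-1-cIAP2-eGFP cells, from 14 to 28 for rises at 6 h, from 3 to 19 for a larger response at 24 h, from 0 to 11 for a different response of the lines, and from 6 to 16 for a different level. A lone array was then assumed to vary like the other conditions. The highest numbers for the response and the level of the lines came from the fit with the dimmest array alone in its condition. They are not set beside a share of all probes and are not read as a result about these genes.

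With the replicate number as a block, 32 genes rose at 24 h on average, 31 in control and 27 in LP-1-cIAP2-eGFP cells, 23 rose at 6 h, 13 had a larger response at 24 h, 0 differed in the response of the lines and 8 in level. The numbers were not taken to pair the samples, since deviations of same-numbered arrays correlated between -0.11 and 0.24 over 28 pairs of conditions, with a median of 0.04. On the dimmest array 35.5% of spots were well above background, which limits what can be said of weak probes there.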
